A study of Mus musculus with 12 samples.

Results

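Respiratory complex I subunits were read as the genes whose symbol starts with Ndufa, Ndufb, Ndufc, Ndufs, Ndufv or Ndufab followed by a digit, with the Ndufaf assembly factors left out. This gave 36 of the 19938 genes measured on the arrays. The rule used names only and no measured value. The study profiled total RNA of KY-1 and KY-2, natural killer (NK) cell lines of mouse with a p53KO genotype, on Affymetrix expression arrays. Every group was grown in cRPMI with 200 U/mL hIL-15, human interleukin-15, transduced with a vector and sorted for GFP. The control vector carried GFP, and the other vector, GFP-P2A-FLAG-Myb, carried GFP joined through the P2A peptide to a FLAG-tagged Myb, a transcription factor of blood cell progenitors. The deposited arrays numbered 3 for KY-1 with GFP, 4 for KY-1 with Myb, 2 for KY-2 with GFP and 3 for KY-2 with Myb.

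Complex I is the entry point of the mitochondrial respiratory chain. It takes electrons from NADH through a flavin and a chain of iron-sulfur clusters to ubiquinone, and pumps protons across the inner membrane. Its L-shaped structure has a peripheral arm in the matrix, which carries the catalytic core, and a membrane arm. Most of the membrane core is encoded in mitochondrial DNA, while the subunits described here are nuclear genes. Activated NK cells raise both glycolysis and respiration, and interleukin-15 supports their mitochondrial metabolism. The members were grouped by their place in the enzyme as 6 nuclear core subunits, 9 supernumerary subunits of the peripheral arm, 9 of the proximal and 9 of the distal membrane arm. The remaining 3 were Ndufab1, the mitochondrial acyl carrier protein, Ndufa4, which is now assigned to complex IV, and its paralogue Ndufa4l2. Ndufb1 and Ndufb4 were not analysed here.

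Values are log2 levels, and a difference of 1 is a doubling. In KY-1, replicates 1 and 2 with GFP and replicates 3 and 4 with Myb differed by no more than a robust SD of 0.05, against 0.10 to 0.17 for the other pairs within a group. Each of these pairs was averaged and counted as 1 replicate, which left 10 replicates (2 with GFP and 3 with Myb in each line). Myb rose from 7.99 ± 0.07 (SD, n = 2) to 9.57 ± 0.02 (n = 3) in KY-1 and from 5.05 ± 0.07 (n = 2) to 9.74 ± 0.07 (n = 3) in KY-2, as the vector labels say; 5.05 lies below the median of all probe sets. Of 12 NK cell markers, 9 lay above 8 in all 10 replicates, all but Ncr1, Tbx21 and Eomes. With GFP, Ncr1 averaged 9.72 in KY-1 and 5.43 in KY-2, and Tbx21 8.60 and 7.98. Eomes went the other way, at 4.86 in KY-1 and 7.30 in KY-2, as did Prf1, at 8.17 and 10.43. The B cell, myeloid and erythroid markers stayed under 8 throughout. Of 6 T cell markers only Cd8a passed 8, at 11.00 in KY-2 with GFP against 5.07 in KY-1 with GFP. The labels do not say whether replicates were separate cultures or whether a line is 1 clone, so the spread behind each p-value below is that of the samples at hand and could be technical, and a line difference compares 1 line with 1 other.

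The clearest pattern among the complex I genes lay between the lines, not between the vectors. With GFP, 4 of 6 core subunits and 5 of 9 subunits of the distal membrane arm were higher in KY-2 than in KY-1, led by Ndufs8, Ndufv1 and Ndufs7, at 3.09, 2.40 and 1.98 times the KY-1 level. In the limma fit over all genes, with a Benjamini-Hochberg adjusted p under 0.05 as the threshold, 14 of 36 members (38.9%) were higher and 0 were lower in KY-2 with the GFP vector. Over all genes, 13.6% were higher and 15.2% were lower (28.9% in either direction). Most genes are dimmer than the members. Of the 4171 genes with a mean level above 8, which include 35 members, 23.4% were higher and 27.1% lower. An unadjusted p under 0.05 was found for 19 members with GFP (38% of all genes) and for 20 with Myb (39.7% of all genes). With the Myb vector 15 members (41.7%) were higher and 2 were lower, against 14.7% and 16.9% of all genes (31.6% in either direction). Of the genes above 8, 23.6% were higher and 31.7% lower with Myb. The median difference of the 36 members was 0.22 with GFP and 0.17 with Myb, beside -0.04 and -0.01 for all genes. For Myb against GFP, 0 of 36 members passed the threshold in either line, against 1.22% of all genes in KY-1 and 2.83% in KY-2.

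The line calls overlapped between vectors. Higher with both vectors were 12 members, which is 85.7% of the 14 called with GFP and 80% of the 15 called with Myb, while 11.1% of all genes were called higher with both. They were Ndufs8, Ndufv1, Ndufs7, Ndufs3, Ndufa12, Ndufa8, Ndufc1, Ndufa1, Ndufb8, Ndufb5, Ndufb6 and Ndufb2. On the level of single arrays, all 5 KY-2 arrays lay above all 7 KY-1 arrays for 19 members (52.8%, against 13.2% of all genes) and below them for 2 members, Ndufa7 and Ndufa10 (15.3% of all genes). The arrays measured sorted populations, and a change in every cell cannot be told apart from a change in the share of cells that express a gene.

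**Figure D1:**
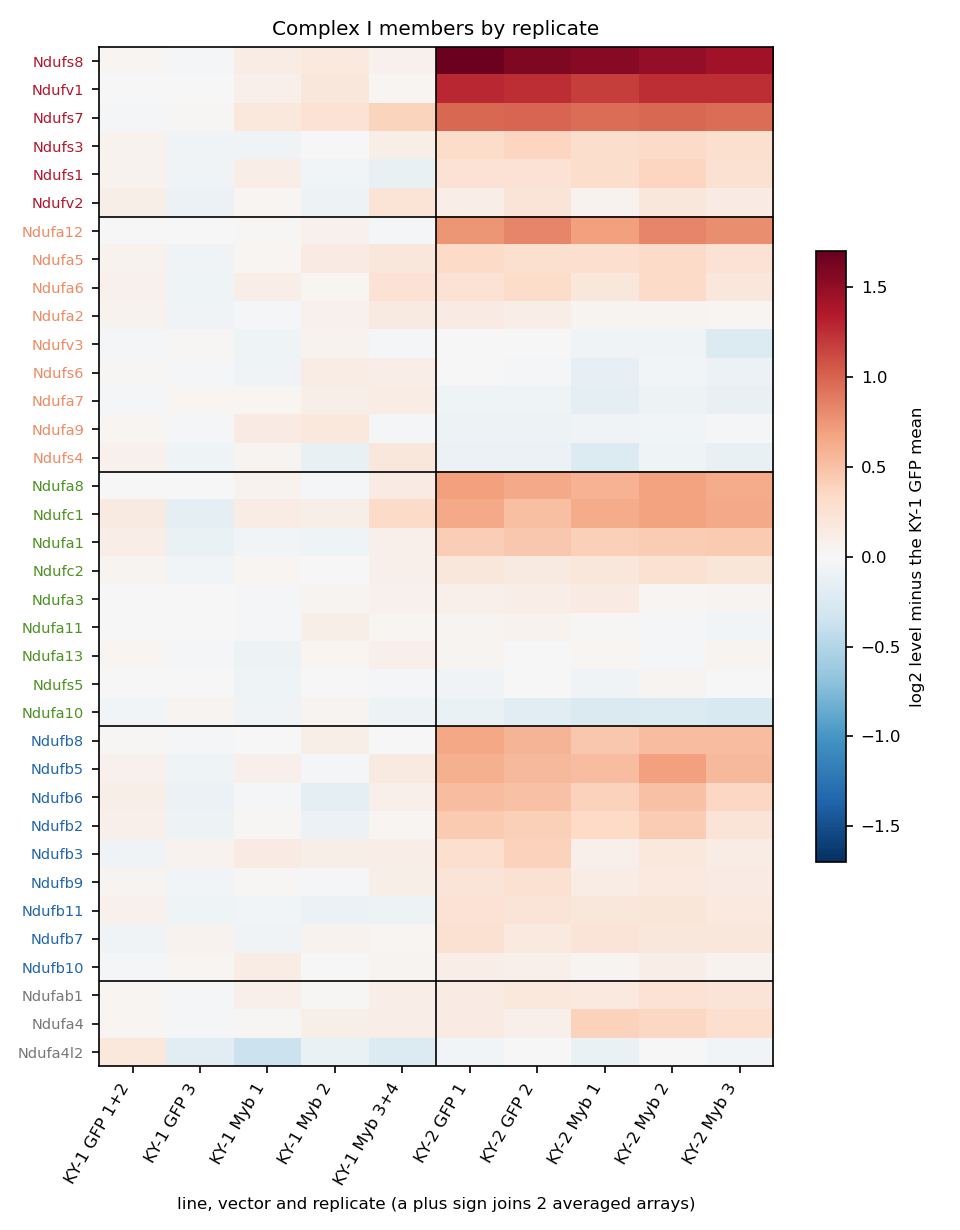
Log2 level of each of the 36 complex I members (vertical axis, coloured and separated by place in the enzyme: core, peripheral arm, proximal membrane arm, distal membrane arm, other) in each of the 10 replicates (horizontal axis), minus that gene's mean in KY-1 with GFP. The 5 KY-2 columns are red for most core and distal membrane arm genes, with the deepest colour in Ndufs8, Ndufv1 and Ndufs7, and pale for most genes of the peripheral arm.

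The catalytic core held the largest line differences. With GFP 4 of 6 core members were higher in KY-2, with Myb 5 of 6, and none was lower with either vector. Over all genes 13.6% were higher with GFP and 14.7% with Myb, and over genes above a mean level of 8, 23.4% and 23.6%. The median core difference was 0.66 with GFP and 0.51 with Myb. Ndufs8, an iron-sulfur subunit on the path to the quinone site, stood at 9.62 and 9.55 in KY-1 with GFP, at 9.71, 9.74 and 9.65 in KY-1 with Myb, at 11.25 and 11.17 in KY-2 with GFP and at 11.13, 11.08 and 11.01 in KY-2 with Myb. The lowest KY-2 replicate was therefore far above the highest KY-1 replicate. The difference was 1.63 ± 0.09 (SE) with GFP (adjusted p = 1.12e-07) and 1.37 ± 0.07 with Myb (adjusted p = 6.10e-08).

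Ndufv1, which binds NADH and the flavin where electrons enter the enzyme, stood at 9.42 and 9.42 in KY-1 with GFP and at 9.51, 9.61 and 9.46 with Myb. In KY-2 it stood at 10.70 and 10.67 with GFP and at 10.59, 10.68 and 10.67 with Myb. The lines did not overlap, and the difference was 1.27 ± 0.09 with GFP (adjusted p = 8.99e-07) and 1.12 ± 0.07 with Myb (adjusted p = 3.51e-07). Ndufs7, which holds the last iron-sulfur cluster before ubiquinone, stood at 9.25 and 9.28 in KY-1 with GFP, and at 9.45, 9.51 and 9.64 with Myb. In KY-2 it lay at 10.24 and 10.26 with GFP and at 10.21, 10.24 and 10.22 with Myb. All KY-2 values exceeded all KY-1 values, and within KY-1 the Myb replicates exceeded both GFP replicates. The line difference was 0.99 ± 0.09 with GFP (adjusted p = 7.30e-06) and 0.69 ± 0.07 with Myb (adjusted p = 1.95e-05).

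The other core subunits differed less. Ndufs3, a core subunit of the quinone-binding module without a cofactor, averaged 10.09 ± 0.08 (n = 2) in KY-1 and 10.43 ± 0.03 (n = 2) in KY-2 with GFP, a difference of 0.34 ± 0.09 (adjusted p = 0.0127), and of 0.29 ± 0.07 with Myb (adjusted p = 0.00963). Ndufs1, the largest core subunit and a carrier of several iron-sulfur clusters, differed by 0.33 ± 0.08 with Myb (adjusted p = 0.00817), and by 0.25 ± 0.10 with GFP, where it missed the threshold (adjusted p = 0.0862). Its arrays did not overlap between lines. Ndufv2, the iron-sulfur partner of Ndufv1, differed by 0.17 ± 0.12 and 0.07 ± 0.09, with adjusted p = 0.325 and 0.643, and its lines overlapped with Myb. The call of Ndufs3 with GFP was lost without replicate 3 of KY-1 with GFP (0.28, adjusted p = 0.0925) and without replicate 2 of KY-2 with GFP (0.32, adjusted p = 0.0780), and with Myb after centring each array on its median (0.23, adjusted p = 0.0561).

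**Figure D2:**
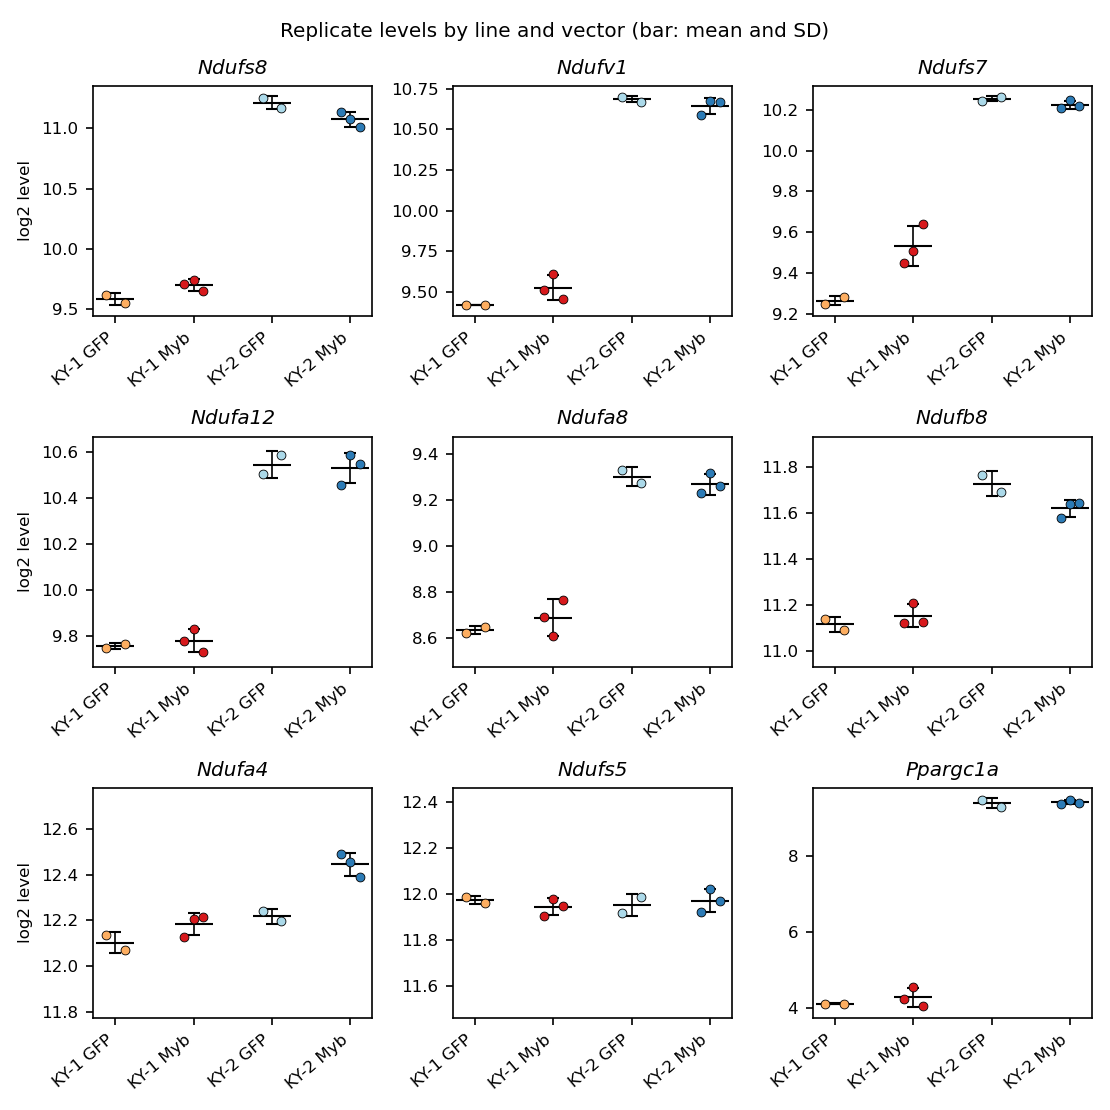
Log2 level of 8 complex I members and of Ppargc1a (vertical axes) in each replicate, by line and vector (horizontal axes), with the group mean and SD as bars. The KY-2 points of Ndufs8, Ndufv1, Ndufs7, Ndufa12, Ndufa8, Ndufb8 and Ppargc1a lie above all KY-1 points, those of Ndufs5 overlap, and Ndufa4 is highest in KY-2 with Myb (12.39 to 12.49).

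Upstream sequences are shown for the 3 core genes with the largest line differences and for Ndufa4, the member with the largest increase with the Myb vector in KY-2. Each is the run of 250 bases before the RefSeq start (GRCm38.p6), read 5′ to 3′ on the gene's strand. Capitals mark the letters AACNG, the core of the sequence that Myb is known to bind, or their reverse complement CNGTT. The windows are chr19:3912775-3913024 (minus strand) for Ndufs8, chr19:4012756-4013005 (minus strand) for Ndufv1, chr10:80249199-80249448 (plus strand) for Ndufs7 and chr6:11907451-11907700 (minus strand) for Ndufa4.
Ndufs8: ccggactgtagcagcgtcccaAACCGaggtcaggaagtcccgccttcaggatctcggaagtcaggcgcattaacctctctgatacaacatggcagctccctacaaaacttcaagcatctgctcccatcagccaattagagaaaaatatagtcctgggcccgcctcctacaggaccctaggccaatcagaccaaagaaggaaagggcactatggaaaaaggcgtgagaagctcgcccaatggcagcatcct
Ndufv1: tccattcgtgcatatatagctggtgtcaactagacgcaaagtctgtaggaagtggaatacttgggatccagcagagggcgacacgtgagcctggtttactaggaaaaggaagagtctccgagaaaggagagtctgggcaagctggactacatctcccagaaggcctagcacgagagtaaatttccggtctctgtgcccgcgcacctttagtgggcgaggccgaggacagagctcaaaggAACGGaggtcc
Ndufs7: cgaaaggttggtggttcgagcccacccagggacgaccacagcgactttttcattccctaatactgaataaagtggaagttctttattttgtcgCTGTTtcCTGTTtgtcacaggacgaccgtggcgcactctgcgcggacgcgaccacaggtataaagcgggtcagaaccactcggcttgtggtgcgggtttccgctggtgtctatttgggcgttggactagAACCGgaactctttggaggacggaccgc
Ndufa4: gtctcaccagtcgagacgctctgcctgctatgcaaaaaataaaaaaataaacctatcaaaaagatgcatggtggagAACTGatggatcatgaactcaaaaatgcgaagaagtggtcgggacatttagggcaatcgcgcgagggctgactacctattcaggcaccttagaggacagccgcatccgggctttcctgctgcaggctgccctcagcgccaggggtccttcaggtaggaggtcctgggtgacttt
AACNG was found 1 time in the runs of Ndufs8, Ndufv1 and Ndufa4 and 3 times in that of Ndufs7. It is a short pattern: on both strands it was present in 80.3% of all 32851 RefSeq windows of 300 bases (250 before to 50 after the start) and in 91.2% of the 34 windows of the 32 members found there. Ndufa2, Ndufa4l2, Ndufb9 and Ndufs1 had no window in the table. The NRF1 letters, GCGC and TGCGC with 1 free base between them, were in 20.6% of member windows and in 4.6% of all windows, and the YY1 letters AAGATGG in 20.6% and 6.34%. The ETS letters CCGGAAG, a form bound by GABP, were in 11.8% and 8.86%. Of the 14 genes higher in KY-2 with GFP, 13 held AACNG, 3 the ETS letters, 3 the YY1 letters and 2 the NRF1 letters. Of all 32 members with a window, 30 held AACNG, 4 the ETS letters, 7 the YY1 letters and 6 the NRF1 letters. A match describes these letters and not a bound site.

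The supernumerary subunits of the peripheral arm showed the fewest differences among the 4 structural groups. With GFP 2 of 9 were higher in KY-2, with Myb 1 was higher and 1 was lower, and the median difference was 0.00 with GFP and -0.10 with Myb. The shares higher, 22.2% and 11.1%, were near or below the 23.4% and 23.6% of genes above a mean level of 8. Over all genes the shares were 13.6% and 14.7%. Ndufa12, which takes the place that the assembly factor Ndufaf2 leaves late in assembly, stood at 9.75 and 9.76 in KY-1 with GFP, at 9.78, 9.83 and 9.73 with Myb, at 10.50 and 10.59 in KY-2 with GFP and at 10.46, 10.59 and 10.55 with Myb. The lines were fully apart, by 0.79 ± 0.09 with GFP (adjusted p = 3.56e-05) and 0.75 ± 0.07 with Myb (adjusted p = 8.49e-06). Ndufa5 was higher in KY-2 with GFP by 0.30 ± 0.09 (adjusted p = 0.0249). With Myb it differed by 0.17 ± 0.07 (adjusted p = 0.108), and whether the line difference depended on the vector was not called (-0.13, adjusted p = 0.760). The Ndufa5 call was lost under 5 of 19 alternatives, where it was 0.24 to 0.32. These were leaving out replicate 3 of KY-1 with GFP (0.24, adjusted p = 0.150) or replicate 1 or 2 of KY-2 with GFP (0.28 and 0.32), median centring and a fit of only the groups compared.

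Ndufa7 was lower in KY-2 with Myb, at 9.85, 9.91 and 9.87 against 10.03, 10.10 and 10.12 in KY-1 with Myb. The groups did not overlap, and the difference was -0.21 ± 0.07 (adjusted p = 0.0320). With GFP it was -0.07 ± 0.08 (adjusted p = 0.567). The call was lost under 7 of 19 alternatives: a replicate block on all 12 arrays (-0.20, adjusted p = 0.0537), a fit of only the groups compared, and leaving out replicate 2 or the averaged replicates 3 and 4 of KY-1 with Myb (-0.20 and -0.19) or replicate 1, 2 or 3 of KY-2 with Myb (-0.20, -0.22 and -0.21), and the sign turned when each array was centred per chromosome (0.042, adjusted p = 0.655). Ndufs4, a subunit added late to the NADH-oxidising end, differed by -0.10 ± 0.11 with GFP and -0.19 ± 0.09 with Myb. Ndufa9, which sits where the arms meet, differed by -0.09 ± 0.09 and -0.14 ± 0.07. Neither passed the threshold with either vector, and Ndufs6, Ndufv3, Ndufa2 and Ndufa6 did not pass it either.

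In the proximal membrane arm 3 of 9 members (33.3%) were higher in KY-2 with each vector. Over all genes 13.6% were higher with GFP and 14.7% with Myb, and over genes above a mean level of 8, 23.4% and 23.6%. Ndufa8, a cysteine-rich protein of the intermembrane space side, stood at 8.62 and 8.65 in KY-1 with GFP, at 8.69, 8.61 and 8.77 with Myb, at 9.33 and 9.28 in KY-2 with GFP and at 9.23, 9.32 and 9.26 with Myb. The lines were apart, by 0.67 ± 0.09 with GFP (adjusted p = 0.000138) and 0.58 ± 0.07 with Myb (adjusted p = 6.96e-05). Ndufc1, a small membrane subunit, differed by 0.58 ± 0.12 (adjusted p = 0.00331) and 0.46 ± 0.10 (adjusted p = 0.00315). Its 2 GFP replicates in KY-1 lay at 10.22 and 9.91, and both were under the lowest KY-2 value of 10.58. Ndufa1, an X-linked membrane subunit, differed by 0.44 ± 0.10 with GFP (adjusted p = 0.00607) and 0.44 ± 0.08 with Myb (adjusted p = 0.00145).

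Of the remaining proximal members only Ndufa10 was called, and with Myb only. Ndufa10, which resembles a nucleoside kinase, stood at 11.36, 11.46 and 11.33 in KY-1 with Myb and at 11.17, 11.18 and 11.16 in KY-2 with Myb, without overlap. The difference was -0.21 ± 0.07 (adjusted p = 0.0392), and it was -0.15 ± 0.09 with GFP (adjusted p = 0.236). This call was lost under 10 of 19 alternatives, among them a replicate block on all 12 arrays (adjusted p = 0.0556) and a fit of only the groups compared. It was -0.22 to -0.17 without replicate 1 or 2 of KY-1 with Myb, replicate 1 or 2 of KY-2 with GFP, or replicate 1, 2 or 3 of KY-2 with Myb, with adjusted p between 0.0541 and 0.120, and -0.03 with each array centred per chromosome (adjusted p = 0.777). Ndufs5, on the intermembrane space side, ranged from 11.91 to 12.02 over all 10 replicates, and its line difference was -0.02 with GFP (95% interval -0.20 to 0.16) and 0.03 with Myb (-0.12 to 0.17). Ndufc2, whose arrays did not overlap between lines, differed by 0.17 ± 0.08 and 0.18 ± 0.07 and missed the threshold (adjusted p = 0.149 and 0.0712).

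All 9 members of the distal membrane arm had a positive line difference with both vectors, and 5 (55.6%) passed the threshold with each. The median was 0.34 with GFP and 0.26 with Myb. Of all genes, 44.1% had a positive difference with GFP and 47.6% with Myb, and 13.6% and 14.7% were called higher. Of genes above a mean level of 8, 23.4% and 23.6% were called higher. Ndufb8 stood at 11.14 and 11.09 in KY-1 with GFP, at 11.12, 11.21 and 11.12 with Myb, at 11.77 and 11.69 in KY-2 with GFP and at 11.58, 11.64 and 11.64 with Myb. KY-2 was higher in every comparison of replicates, by 0.61 ± 0.08 with GFP (adjusted p = 0.000185) and 0.47 ± 0.07 with Myb (adjusted p = 0.000252). Ndufb5 differed by 0.58 ± 0.10 (adjusted p = 0.00112) and 0.52 ± 0.08 (adjusted p = 0.000476), and Ndufb6 by 0.51 ± 0.11 (adjusted p = 0.00397) and 0.45 ± 0.09 (adjusted p = 0.00208). Ndufb2 differed by 0.43 ± 0.10 (adjusted p = 0.00725) and 0.35 ± 0.08 (adjusted p = 0.00690). These 4 are accessory proteins around the distal proton-pumping subunits.

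Ndufb3 was the member whose line difference was least alike between vectors. With GFP it averaged 8.44 ± 0.08 (n = 2) in KY-1 and 8.78 ± 0.08 (n = 2) in KY-2, a difference of 0.34 ± 0.09 (adjusted p = 0.0118). With Myb the averages were 8.56 ± 0.02 and 8.57 ± 0.05 (n = 3 each), a difference of 0.01 ± 0.07 (adjusted p = 0.932). The test of the change between vectors gave -0.33 ± 0.11 and did not pass (adjusted p = 0.299). Ndufb11, an X-linked subunit, differed by 0.26 ± 0.07 with Myb (adjusted p = 0.0112) and by 0.23 ± 0.08 with GFP (adjusted p = 0.0601). Its call was lost after quantile normalization (0.18, adjusted p = 0.0580), median centring (0.20, adjusted p = 0.0770) and centring per chromosome (0.04, adjusted p = 0.667). Ndufb9, Ndufb7 and Ndufb10 had positive differences that missed the threshold with both vectors. The GFP call of Ndufb3 was lost without the averaged replicates 1 and 2 of KY-1 with GFP (0.28, adjusted p = 0.0923) and without replicate 2 of KY-2 with GFP (0.28, adjusted p = 0.0952), that of Ndufb2 without replicate 3 of KY-1 with GFP (0.35, adjusted p = 0.0665) and without replicate 1 of KY-2 with GFP (0.41, adjusted p = 0.0502).

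**Figure D3:**
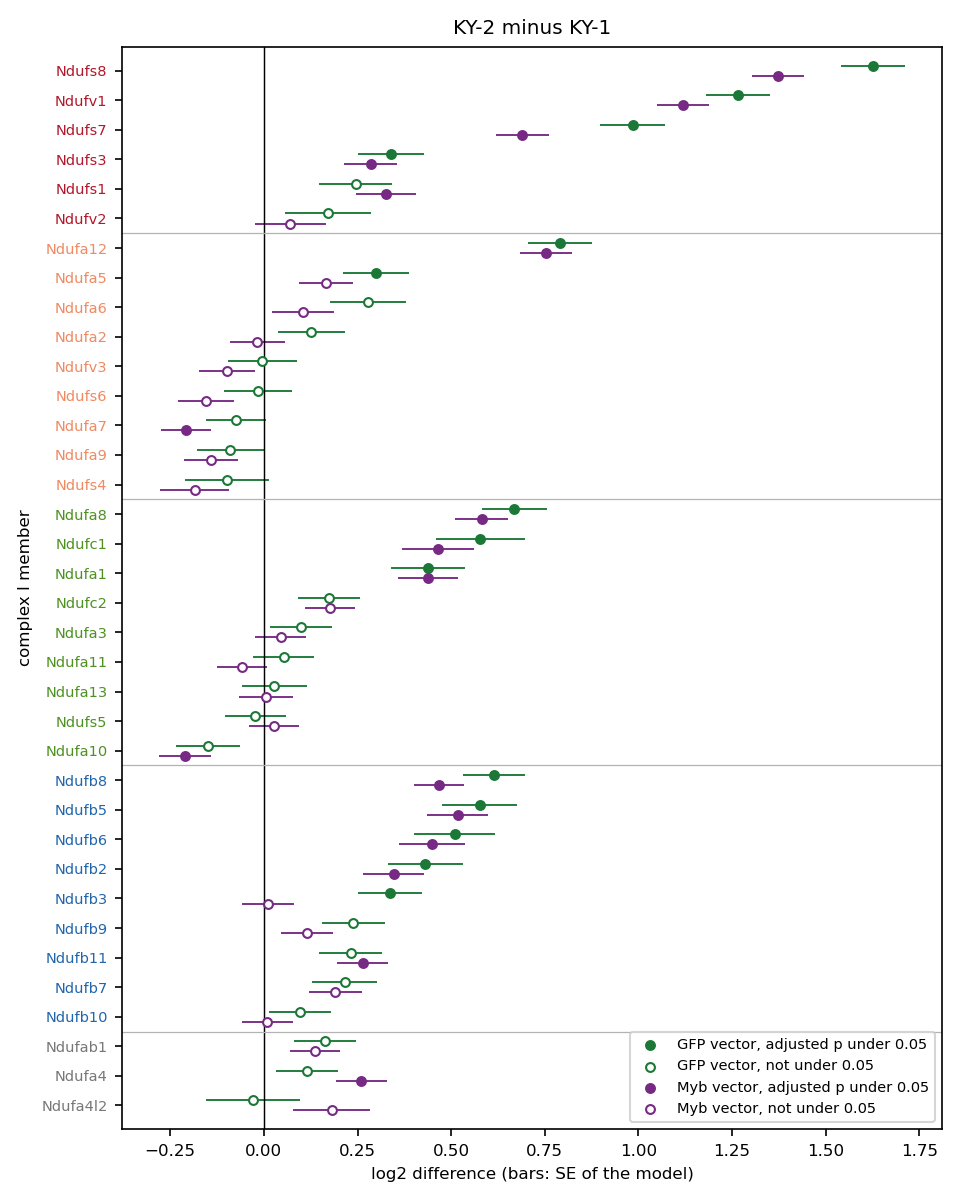
Log2 difference KY-2 minus KY-1 (horizontal axis) of each complex I member (vertical axis, ordered by place in the enzyme), with the SE of the model as bars, for the GFP vector and the Myb vector. Filled points have an adjusted p under 0.05: 14 with GFP, all positive, and 17 with Myb, of which Ndufa7 and Ndufa10 are negative.

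Of the 3 members outside these groups, Ndufab1, which serves fatty acid synthesis and iron-sulfur cluster assembly, differed by 0.16 ± 0.08 with GFP and 0.14 ± 0.07 with Myb and was not called. Ndufa4 was higher in KY-2 with Myb by 0.26 ± 0.07 (adjusted p = 0.0119), and with GFP it differed by 0.11 ± 0.08 (adjusted p = 0.360). Its call was lost after median centring (0.20, adjusted p = 0.0664). Ndufa4l2, known as a hypoxia-induced gene, ranged from 4.50 to 5.04 and was the dimmest member. It lay below the median of all probe sets, which was 5.31 to 5.42 per array, in all 10 replicates. The other 35 members ranged from 8.39 to 12.49, and Ndufa4 was the brightest.

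Second probe sets were available for 5 members. With GFP, the line difference of Ndufc1 was 0.58 in the probe set used and 0.68 in the other, that of Ndufs3 was 0.34 and 0.30, and that of Ndufb11 was 0.23 and 0.34. Ndufab1 gave 0.16 and 0.21, and Ndufa11 gave 0.05 and 0.03. The sign was the same within each pair. Where a probe set can also bind a near-identical copy of its gene, such as a processed pseudogene, the signals cannot be told apart here. For Ndufb11 and Ndufa11 in particular, whether the probe set used lies at the gene or at a copy was not checked, and the chromosome given for them is that of the gene.

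The count of line calls depended on the variance model and on the genes fitted. With only genes above a mean of 6, which leaves out Ndufa4l2, 20 members were called with GFP, all higher. Of all genes fitted there, 58.4% were called in either direction and 26% higher. With Myb 21 were called (19 higher, 2 lower), against 63.1% of all genes fitted in either direction and 26.8% higher. With the prior variance allowed to follow the mean level, 22 members were called with GFP (21 higher, 1 lower, against 31.9% of all genes in either direction) and 24 with Myb (19 higher, 5 lower, against 34.2%). The median line difference was 0.14 with GFP and 0.11 with Myb after a further quantile normalization, and 0.11 with Myb after centring each array on its median.

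Line differences over all genes varied between chromosomes, and the members are given here beside their chromosome. Whether the members' differences follow it was not tested. Among the 4171 genes with a mean level above 8, of which 35 are members, 23.4% were higher and 27.1% lower in KY-2 with GFP. On chromosome 19, which holds Ndufs8, Ndufv1 and Ndufb8, the figure was 72.2% higher with a median difference of 0.49, and all 3 members were called higher. On chromosome 10, 62% were higher with a median of 0.35. Of its 3 members Ndufs7 and Ndufa12 were called higher, and the dim Ndufa4l2 differed by -0.03. On chromosome 17, home to Ndufv2, Ndufv3, Ndufa7, Ndufa11 and Ndufb10, 6.91% were higher with a median of -0.18, and 0 of 5 members were called with GFP. On chromosome 7 the median was -0.24 and 0 of its 3 members, Ndufa3, Ndufab1 and Ndufc2, were called. Other members were higher on chromosomes with negative medians. On chromosome 6 the median was -0.22 with 12.7% higher, and 2 of 4 members, Ndufa5 and Ndufb2, were called higher. Ndufb3 was higher on chromosome 1 (median -0.21) and Ndufb6 on chromosome 4 (median -0.11).

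Neighbouring genes showed the same in part. Ndufs8 and Ndufv1 lie close on chromosome 19, with 7 measured genes between them in the GRCm38.p6 order. Their neighbour sets share most genes, and each set counts the other member among its higher genes, so they describe 1 region. Of the 31 measured genes within 20 steps of Ndufs8, 15 were higher and 1 lower in KY-2 with GFP, with a median difference of 0.32. Around Ndufs7, 19 of 40 neighbours were higher and 1 lower, with a median of 0.28. The higher ones include Atp5d and Uqcr11, which are also among the subunits of complexes II to V given below. Around Ndufa8 on chromosome 2, 5 of 40 were higher and 4 lower, with a median of -0.05, but only 6 of these 40 had a mean level above 8. Among neighbours above 8, 8 of 10 were higher around Ndufs8, 10 of 14 in the overlapping set around Ndufv1, 10 of 12 around Ndufs7 and 1 of 6 around Ndufa8. Around Ndufa12 9 of 14 were higher and 2 lower, and around Ndufb8 6 of 8 and 2. Of all genes above 8, 23.4% were higher. DNA copy number of the lines was not measured in these data, and its part in the result was not tested.

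With the chromosome's median difference subtracted, 35 of 36 members had a positive remainder with GFP (median 0.34) and 33 of 36 with Myb (median 0.26). Ndufs8 kept 1.14 of its 1.63, Ndufv1 0.78 of 1.27, Ndufs7 0.64 of 0.99, and Ndufb8 0.13 of 0.61. In a refit with each array centred per chromosome, an alternative chosen after seeing the data, 23 members were called with GFP (22 higher, 1 lower, against 29.9% of all genes in either direction) and 21 with Myb (all higher, against 35.1%). The calls of Ndufa1 and Ndufb8 were lost with both vectors in that refit, at 0.25 and 0.13 with GFP (adjusted p = 0.0701 and 0.249) and at 0.21 and 0.13 with Myb (adjusted p = 0.0545 and 0.164).

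**Figure D4:**
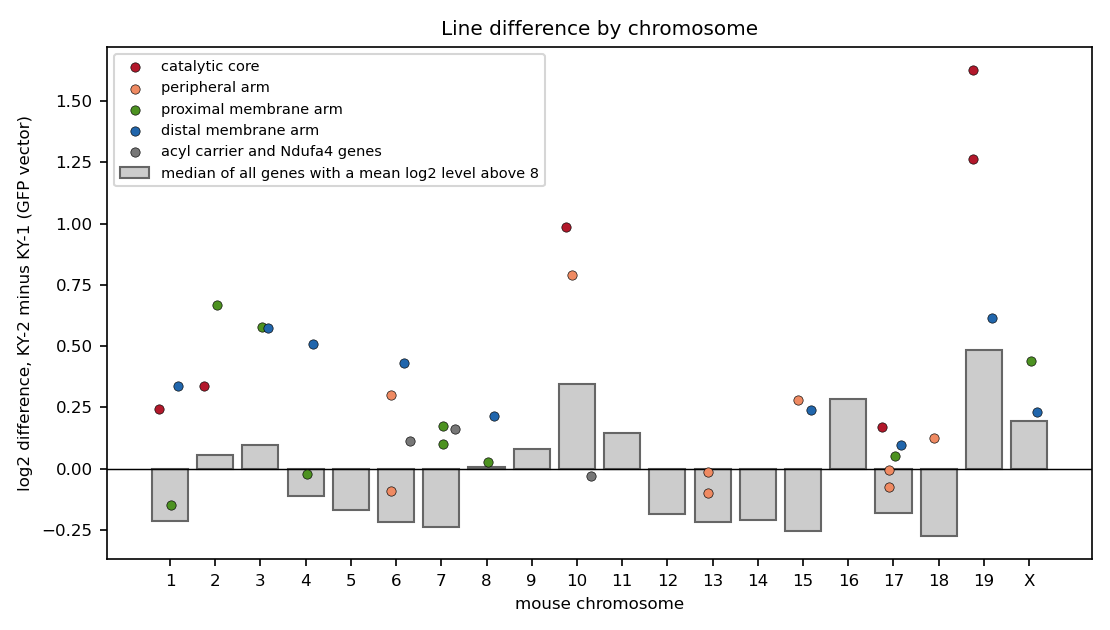
Log2 difference KY-2 minus KY-1 in cells with GFP (vertical axis) by mouse chromosome (horizontal axis). Grey bars give the median of all genes with a mean level above 8, and points give the 36 complex I members coloured by place in the enzyme. Chromosomes 19 and 10 have the highest bars, 0.49 and 0.35, and members lie above the bar of their chromosome except Ndufa4l2 on chromosome 10.

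Other genes of oxidative phosphorylation also differed between the lines. Of 37 nuclear subunits of complexes II to V, 22 (59.5%) were higher and 0 lower in KY-2 with GFP, against 13.6% and 15.2% of all genes. With Myb 21 (56.8%) were higher and 0 lower, against 14.7% and 16.9%. The medians were 0.34 and 0.28. Of the complex I members, 38.9% were higher with GFP and 41.7% with Myb, and of all genes with a mean level above 8, 23.4% and 23.6%. Atp5d, a subunit of the ATP synthase stalk, was higher by 0.95 ± 0.08 with GFP (adjusted p = 6.03e-06), and Uqcr10, a small subunit of complex III, by 0.75 ± 0.08 (adjusted p = 2.94e-05). Cox8a of complex IV was higher by 0.90 ± 0.10 (adjusted p = 3.04e-05), and Sdhd, a membrane anchor of complex II, by 0.87 ± 0.09 (adjusted p = 3.34e-05). With Myb, Uqcr10, Atp5d, Uqcr11 and Sdhd led, at 0.71, 0.72, 0.61 and 0.68. ND3, the only mitochondrially encoded subunit of complex I measured, differed by -0.04 ± 0.11 with GFP and 0.08 ± 0.09 with Myb and was not called.

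Complex I assembly factors moved in both directions. Of 18 measured, 10 (55.6%) were higher and 2 lower in KY-2 with GFP, against 13.6% and 15.2% of all genes. With Myb 9 (50%) were higher and 2 lower, against 14.7% and 16.9%. Ndufaf5, which modifies Ndufs7 during assembly, was higher by 1.14 ± 0.09 with GFP (adjusted p = 4.55e-06) and 1.09 ± 0.08 with Myb (adjusted p = 1.03e-06). Timmdc1, Ecsit and Dmac1, factors for the membrane arm, were higher with GFP by 0.91, 0.70 and 0.59, and Ndufaf7, a methyltransferase of early assembly, by 0.62. Nubpl, which delivers iron-sulfur clusters to complex I, was lower by 1.02 ± 0.16 with GFP (adjusted p = 0.000579) and 1.05 ± 0.13 with Myb (adjusted p = 8.82e-05), to group means of 4.55 and 4.51 in KY-2. These lie below the array medians too, so the size of the decrease is best read as a lower bound.

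Among 13 regulators of mitochondrial genes, 4 (30.8%) were higher and 2 lower with GFP, against 13.6% and 15.2% of all genes. With Myb 4 (30.8%) were higher and 1 lower, against 14.7% and 16.9%. Ppargc1a, which encodes the coactivator PGC-1alpha, a driver of mitochondrial biogenesis, averaged 4.10 ± 0.01 (n = 2) in KY-1 with GFP, 4.27 ± 0.25 (n = 3) in KY-1 with Myb, 9.38 ± 0.13 (n = 2) in KY-2 with GFP and 9.41 ± 0.05 (n = 3) in KY-2 with Myb. The lines were apart by 5.28 ± 0.14 with GFP (adjusted p = 6.54e-10) and 5.14 ± 0.11 with Myb (adjusted p = 1.03e-10). The KY-1 levels lay below the array medians of 5.31 to 5.42, where a probe set may not be above background, so these differences are best read as lower bounds. Esrra, a nuclear receptor that PGC-1alpha coactivates, named after its values were seen to complete the 4, was higher by 0.51 and 0.40, Gabpa, an ETS factor, by 0.41 and 0.52, and Pprc1, a relative of PGC-1alpha, by 0.40 and 0.44. Yy1 was lower by 0.54 and 0.55 with GFP and Myb, and Sp1 by 0.42 with GFP. Both are transcription factors with sites in many mitochondrial gene promoters. The Pprc1 difference with GFP was -0.080 after centring per chromosome (adjusted p = 0.507). With that centring the calls of Esrra were lost with both vectors (0.03 with GFP, adjusted p = 0.887, and 0.06 with Myb, adjusted p = 0.684). So were those of Gabpa (0.10 with GFP and 0.19 with Myb), of Pprc1 with Myb (0.10) and of Sp1 with GFP (-0.18). Gabpa with GFP was also not called without the averaged replicates 1 and 2 or replicate 3 of KY-1 with GFP or without replicate 1 or 2 of KY-2 with GFP (0.39 to 0.44), and Esrra with GFP not without replicates 1 and 2 of KY-1 with GFP (0.42, adjusted p = 0.0650). The part of these regulators in the levels of complex I genes was not tested. Marker levels also went with the line. The mean level over the 6 T cell markers was 5.08 to 5.28 in KY-1 replicates and 6.02 to 6.29 in KY-2 replicates, and Cd8a was the marker that differed most. With GFP, Cd3e averaged 6.22 in KY-1 and 5.32 in KY-2, and Cd3d 6.33 and 7.72. Cd4, Cd8b1 and Cd5 stayed between 4.30 and 4.81 in all 4 groups. The part of marker differences in the complex I result was not tested.

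The second comparison was Myb against GFP within each line, which asks what the added Myb changed. In KY-1, 0 of 36 members passed the threshold, against 0.612% of all genes higher and 0.612% lower, and in KY-2 0 of 36, against 1.28% higher and 1.55% lower. An unadjusted p under 0.05 was found for 1 member in KY-1 and 2 in KY-2 (11% and 13.2% of all genes). Averaged over lines, 0 members passed (3.1% of all genes, 1.52% higher and 1.58% lower), with 1 at an unadjusted p under 0.05 (13.8% of all genes). The 95% intervals of all members lay between -0.48 and 0.44 in KY-1 and between -0.38 and 0.39 in KY-2. These outer limits belong to Ndufa4l2 and Ndufs7 in KY-1 and to Ndufb3 and Ndufa4 in KY-2. For each member, a change up to the limits of its own interval could be missed. The median member difference was 0.04 in KY-1, with 27 of 36 positive, and -0.04 in KY-2, with 28 of 36 negative, beside 0.00 and 0.01 for all genes. Of all genes, 49.6% were positive in KY-1 and 53% in KY-2. The subunits of complexes II to V had medians of 0.03 and -0.04, with 25 of 37 positive in KY-1 and 27 of 37 negative in KY-2.

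Single members came closest to a change as follows. Ndufs7 in KY-1 was higher with Myb by 0.27 ± 0.08 (adjusted p = 0.196), and its 3 Myb replicates (9.45, 9.51 and 9.64) lay above both GFP replicates (9.25 and 9.28). In KY-2 the same gene differed by -0.03 (95% interval -0.20 to 0.15). Ndufa4 in KY-2 stood at 12.49, 12.45 and 12.39 with Myb and at 12.24 and 12.20 with GFP, without overlap, a difference of 0.23 ± 0.08 (adjusted p = 0.199). In KY-1 it stood at 12.13, 12.21 and 12.22 with Myb and at 12.13 and 12.07 with GFP, a difference of 0.08 ± 0.08 that the groups' overlap does not separate. Ndufb3 in KY-2 stood at 8.52, 8.62 and 8.57 with Myb against 8.72 and 8.83 with GFP, a difference of -0.21 ± 0.08 (adjusted p = 0.264).

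Ndufs7 and Ndufa4 were called under some of the alternatives, and Ndufb3 under none. Ndufs7 in KY-1 passed with all 12 arrays as separate replicates (0.30, adjusted p = 0.0177), with only genes above a mean of 6 (0.27, adjusted p = 0.0446) and with a variance that follows the mean (0.27, adjusted p = 0.0219). Ndufa4 in KY-2 passed with only genes above a mean of 6 (0.23, adjusted p = 0.0499), after a further quantile normalization (0.31, adjusted p = 0.0473) and with a variance that follows the mean (0.23, adjusted p = 0.00446). Ndufa4 averaged over lines was 0.15 ± 0.05 (adjusted p = 0.205), and it passed with a variance that follows the mean (0.15, adjusted p = 0.00583).

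Myb and GFP arrays did not overlap for 4 members in KY-1, all higher with Myb: Ndufs7, Ndufs8, Ndufv1 and Ndufb3, against 9.16% of all genes. For 0 members were all KY-1 Myb arrays lower, against 9.88%. In KY-2, 11 members were lower on all Myb arrays (30.6%, against 14.6% of all genes) and 3 were higher (Ndufa4, Ndufa9 and Ndufs1, against 16.4%). Among the 11 were Ndufs8 at -0.14 ± 0.08, Ndufv3 at -0.11 ± 0.08, Ndufb8 at -0.11 ± 0.08 and Ndufb9 at -0.09 ± 0.08, and none of the 11 passed the threshold.

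**Figure D5:**
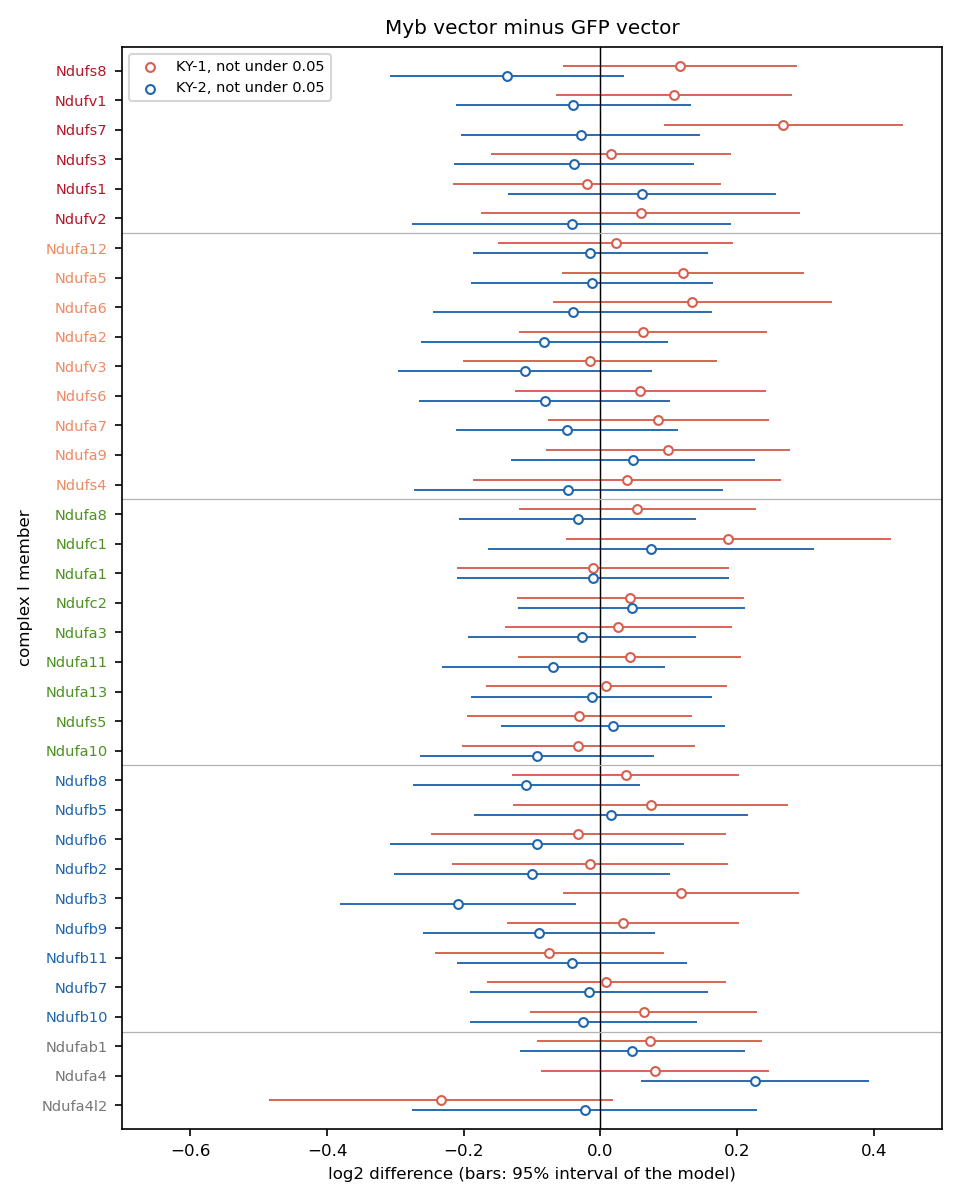
Log2 difference Myb minus GFP (horizontal axis) of each complex I member (vertical axis, ordered by place in the enzyme) in KY-1 and KY-2, with 95% intervals of the model as bars. All points are open because 0 of 36 members passed an adjusted p of 0.05 in either line, and all but 3 intervals, those of Ndufs7 in KY-1 and of Ndufa4 and Ndufb3 in KY-2, include 0.

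Whether Myb acted differently in KY-2 and KY-1 was tested as an interaction, which called 0 of 36 members, against 0.843% of all genes (0.461% higher and 0.381% lower), and 3 had an unadjusted p under 0.05 (10.3% of all genes): Ndufb3 at -0.33 ± 0.11, Ndufs7 at -0.30 ± 0.11 and Ndufs8 at -0.25 ± 0.11 (adjusted p = 0.299, 0.372 and 0.460). The median was -0.09, with 30 of 36 negative, beside 0.01 for all genes, of which 52.5% were positive. For the subunits of complexes II to V it was -0.07, with 27 of 37 negative. The largest positive values were 0.21 ± 0.16 for the dim Ndufa4l2, 0.15 ± 0.11 for Ndufa4 and 0.08 ± 0.13 for Ndufs1. By place in the enzyme, the medians of the Myb effect in KY-1 and KY-2 were 0.08 and -0.04 for the core, 0.06 and -0.05 for the peripheral arm, 0.03 and -0.01 for the proximal and 0.03 and -0.09 for the distal membrane arm. None of the assembly factors, regulators or subunits of complexes II to V passed the threshold for Myb against GFP in either line, averaged over lines or for the difference between lines.

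The replicates within a group set the limit of these comparisons. The median SD of the 36 members was 0.06 in KY-1 with GFP, 0.07 in KY-1 with Myb, 0.03 in KY-2 with GFP and 0.04 in KY-2 with Myb. In KY-1, GFP replicate 3 lay below the averaged replicates 1 and 2 for 25 of 36 members (55.2% of all genes), by a median of 0.07. In KY-1 with Myb, the averaged replicates 3 and 4 lay above replicate 1 for 27 of 36 members (49.2% of all genes). They lay above replicate 2 for 23 of 36 (44% of all genes). In KY-2, GFP replicate 2 lay below replicate 1 for 19 of 36 members, with a median difference of -0.01. The median member level, a summary over the genes, was 10.48 to 10.61 in the KY-1 GFP replicates, 10.52 to 10.62 in KY-1 with Myb, 10.83 to 10.86 in KY-2 with GFP and 10.82 to 10.86 in KY-2 with Myb. Without KY-1 GFP replicate 3, which left 1 replicate in that group, the median line difference with GFP went from 0.22 to 0.17. The calls of Ndufa1 (0.32), Ndufa5, Ndufb2 and Ndufs3 with GFP were lost.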

How the data were processed

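Per the submitters' processing notes, Partek and RMA (robust multi-array average) were used, and the deposited values are normalized log2 levels per probe set. For their versions and the build of the probe sets: not given in the sources used here. Of 35556 probe sets, 21789 had 1 symbol in the platform annotation, 1621 had several and 12146 were not listed. The brightest probe set per gene gave 19938 genes. Arrays of a group with a robust SD of their log2 differences under 0.07 were averaged. limma 3.58.1 (R 4.3.3; lmFit, contrasts.fit, eBayes) was fitted over all 4 groups and all genes, with 6 contrasts and Benjamini-Hochberg adjustment over all genes (threshold 0.05), and was checked on simulated data. The number of arrays limits precision. Members and gene lists were chosen with earlier results of these data known, so lists are described without set tests. Named are Myb, each member past the threshold, the 3 highest and 3 lowest members per contrast, the brightest and dimmest member and up to 4 called genes per list; other members are named with their groups. Promoter windows are RefSeq's. Alternatives covered replicates, filters, scaling, probe sets, variance model, samples fitted and a replicate block.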

Additional observations from a re-analysis of the deposited data

Results flagged for a closer look

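The response of Myb to its vector differed between the lines. The Myb effect was 1.58 ± 0.08 (SE) in KY-1 and 4.69 ± 0.08 in KY-2 on the log2 scale, and the difference of these effects was 3.11 ± 0.11 (limma, adjusted p = 3.84e-07, higher in KY-2). With GFP, Myb differed by -2.94 ± 0.09 in KY-2 against KY-1 (adjusted p = 1.56e-09), and with the Myb vector the lines were 0.17 ± 0.07 apart (adjusted p = 0.0940). Myb in KY-2 with GFP, at 5.05, lay below the median of all probe sets (5.31 to 5.42), so the KY-2 effect and the difference of effects are best read as lower bounds. The complex I comparison between the Myb effects of the lines is therefore a comparison of unequal increases of Myb.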

How the results depend on the processing

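Fits and settings were varied one at a time. In KY-1, the count of members called for Myb against GFP went from 0 to 1 under 3 settings. These were 12 separate arrays, genes above a mean of 6 and a variance that follows the mean (4.13%, 4.98% and 2.43% of all genes). In KY-2 it did so with genes above a mean of 6, further quantile normalization and a variance that follows the mean (8.55%, 3.09% and 4.45%). Averaged over lines it did so with a variance that follows the mean (5.18%). The GFP line count of 14 became 22 with a variance that follows the mean (31.9% of all genes) and 20 with genes above a mean of 6 (58.4%). It became 23 with each array centred per chromosome (29.9%), which was chosen after seeing the data. With Myb the count of 17 (2 lower) became 24 (5 lower) with a variance that follows the mean (34.2%). It became 21 (2 lower) with genes above a mean of 6 (63.1%). The median line difference became 0.14 with GFP and 0.11 with Myb after quantile normalization, 0.11 with Myb after median centring, and 0.34 and 0.25 after centring per chromosome. In that last setting Pprc1 with GFP turned to -0.080 and Ndufa7 with Myb to 0.042. The causes were not tested. The filter changed both the number of genes tested and the SE. The SE went from 0.076 to 0.064 for Ndufa4 in KY-2 and from 0.079 to 0.068 for Ndufs7 in KY-1. Leaving out each replicate gave a median line difference of 0.17 to 0.28 with GFP and 0.13 to 0.19 with Myb. The medians of the Myb comparisons were 0.02 to 0.07 in KY-1, -0.05 to -0.02 in KY-2, -0.01 to 0.01 averaged and -0.11 to -0.05 for the difference. Leaving out a GFP replicate left 1 in its group, and some line calls with GFP were lost. Leaving out a Myb replicate gave 14 line calls with GFP (27.8% to 29.2% of all genes) and 15 to 16 with Myb (27.4% to 29.3%). It gave 0 calls in the 4 Myb comparisons (0.597% to 2.79% of all genes). A replicate block on all 12 arrays gave 0 calls in the 4 Myb comparisons (0.933% to 3.27% of all genes). It gave 14 line calls with GFP (31.1% of all genes) and 15 with Myb (30.7%). Deviations of 15 same-numbered pairs of replicates correlated from -0.52 to 0.34. Each deviation was taken from the mean of its own small group, so the correlations depend on each other. They cannot settle whether the numbers pair the samples. The 38 pairs with different numbers correlated from -0.53 to 0.48. KY-1 GFP arrays 1 and 2 correlated at 0.46 with KY-1 Myb arrays 3 and 4. KY-1 GFP array 3 correlated at 0.48 and 0.32 with KY-1 Myb arrays 2 and 1, and at -0.52 and -0.53 with arrays 3 and 4. Whether such arrays shared a batch is not in the labels, and it was not part of the fit.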
